A study of Homo sapiens with 6 samples.

Results

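TXNIP, ARRDC4 and the transcription factors of the MondoA glucose sensor were followed in the RNA-seq libraries of COX4I1-depleted leukemia cells. The set has 8 genes. It holds the alpha-arrestins TXNIP, ARRDC1, ARRDC2, ARRDC3 and ARRDC4, and the factors MLX, MLXIP (MondoA) and MLXIPL (ChREBP), which are 8 of the 19845 gene symbols counted. TXNIP and ARRDC4 were chosen by their measured fall in the same comparison that is described here, so their values below are a description without a test. The other 6 genes were added by name, as relatives of TXNIP or as the factors known to drive it.

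The libraries came from Molm13, an established human acute myeloid leukemia line with an MLL rearrangement that was made to express the Cas9 nuclease. All 6 cultures carried Cas9, were transduced with the lentiviral guide vector ipUSEPR and were selected with puromycin. In the sgCtrl group 3 cultures received control guides, and in the sgCOX4I1 group 3 cultures received guides against COX4I1, a nuclear-encoded subunit of Complex IV. Each culture had its own guide sequence according to the legends of the study, so the spread within a group includes differences between guides. No time after transduction and no clone are given in the labels.

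Alpha-arrestins are adaptor proteins that bring ubiquitin ligases of the NEDD4 family to membrane proteins. TXNIP also binds thioredoxin and promotes the internalization of glucose transporters, and ARRDC4 is its closest relative in the regulation by glucose. MondoA and ChREBP pair with MLX, respond to phosphorylated hexoses such as glucose 6-phosphate, and bind carbohydrate response elements, which are pairs of E box-like hexamers, in the promoters of TXNIP and ARRDC4.

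The 250 bases before the transcription start of TXNIP and of ARRDC4 are printed because they hold E box-like hexamers. They come from the RefSeq promoter table on GRCh38.p14, run 5′ to 3′ along the gene, and show in capitals every match to CACGNG (either strand) and every CCAAT box (CCAAT or ATTGG). The TXNIP sequence is the minus strand of chr1:145996580-145996829, before the first of its listed starts. The ARRDC4 sequence is the plus strand of chr15:97960453-97960702. Short stretches of MLX (plus strand of chr17:42567030-42567059) and ARRDC2 (plus strand of chr19:18001072-18001116) are given for comparison.
TXNIP: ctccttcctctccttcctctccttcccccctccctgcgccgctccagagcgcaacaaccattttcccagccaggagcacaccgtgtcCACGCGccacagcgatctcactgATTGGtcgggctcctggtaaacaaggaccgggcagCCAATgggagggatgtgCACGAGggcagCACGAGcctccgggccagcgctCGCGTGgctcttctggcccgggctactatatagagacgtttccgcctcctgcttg
ARRDC4: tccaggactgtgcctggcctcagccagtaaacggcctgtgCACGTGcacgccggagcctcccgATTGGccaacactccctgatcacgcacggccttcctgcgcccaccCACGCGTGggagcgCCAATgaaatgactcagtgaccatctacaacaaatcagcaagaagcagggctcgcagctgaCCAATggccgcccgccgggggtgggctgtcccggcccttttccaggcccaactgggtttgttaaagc
MLX: gcggATTGGcgggcgcgggtCACGTGggca
ARRDC2: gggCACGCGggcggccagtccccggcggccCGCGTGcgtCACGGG

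In TXNIP, CACGAG lies from 88 to 83 bases before the start and occurs again from 77 to 72 bases before it, with 5 bases in between. Such a pair of CACGNG hexamers, on either strand and 5 bases apart, was found in 0.0655% of the 35116 promoters in the table, and TXNIP was the only member with it in this window. The TXNIP window held 4 CACGNG hexamers and 2 CCAAT boxes in all. ARRDC4 had 3 CACGNG hexamers, of which the one from 210 to 205 bases before the start is the perfect E box CACGTG, and 3 CCAAT boxes; 2 of its hexamers overlap each other. For scale, 26.7% of all promoters held at least 1 CACGNG, 6.34% held CACGTG, which is counted in both motifs, and 9.53% held 2 or more CCAAT boxes. MLX had 1 CACGTG and 1 CCAAT box, and ARRDC2 had 3 CACGNG hexamers before its first listed start, none of them in such a pair. MLXIP, ARRDC1 and, before its first listed start, ARRDC3 had 1 CCAAT box and no CACGNG, and MLXIPL had neither. These are matches of letters and not measured binding.

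Library totals ranged from 17241014 to 30861943 counts, and levels are given as CPM, which relates counts to the library total scaled with the TMM factors of edgeR. The defining markers of the line were present, since all 10 myeloid and MLL leukemia markers, such as PTPRC, SPI1 and HOXA9, averaged 1 CPM or more. Their summed level was 2445 to 3444 CPM across sgCtrl libraries and 3221 to 4370 CPM across sgCOX4I1 libraries, with LYZ as the most abundant. LYZ alone was 1149 to 2100 CPM in sgCtrl and 2026 to 3104 CPM in sgCOX4I1 cultures (log2 difference 0.77, adjusted p = 0.0534 from edgeR), whereas 8 of the other 9 markers had log2 differences below 0 and CD33 had 0.15, none of them called. The part of these markers in the results below was not tested. The T cell, erythroid and epithelial markers were at or below 0.0891 CPM in sum, and of the 4 B cell markers 1 (PAX5) had a mean above 1 CPM. COX4I1 itself was 513, 502 and 463 CPM in sgCtrl #1, #2 and #3, against 132, 378 and 133 CPM in sgCOX4I1 #1, #2 and #3. On the log2 scale the difference was -1.21 (adjusted p = 0.0512 from edgeR, 0.242 from DESeq2). Across the 12 alternatives it ran from -1.89, without sgCOX4I1 #2, to -0.95, without sgCOX4I1 #3. The edgeR adjusted p was 3.37e-06 without sgCOX4I1 #2, a library singled out after its COX4I1 value was seen. It was 0.272 without sgCtrl #2 and 0.125 without sgCOX4I1 #3. The sgCOX4I1 #2 library kept 76.7% of the sgCtrl mean of the targeted mRNA. In these bulk libraries fewer cells that express a gene and less RNA per cell cannot be told apart.

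To place the members within the cell, their levels were divided by the length of the canonical transcript in GENCODE 44. In sgCtrl libraries TXNIP was the most abundant member, at 84.1 ± 6.08 CPM per kb (SD, n = 3 libraries), followed by ARRDC1 at 60.4 ± 6.48 and ARRDC2 at 35.9 (libraries from 33.3 to 38.3). MLX, the shared partner of the sensor, was at 29.2 ± 1.48 CPM per kb and MLXIP at 19.7 ± 3.84. ARRDC4 was at 2.80 ± 0.251 and ARRDC3 at 1.70 ± 0.547 CPM per kb. No neighbours in this order overlapped in their sgCtrl library values. In sgCOX4I1 libraries the level of ARRDC1 (57.2 to 62.7 CPM per kb) lay above that of TXNIP (47.1 to 54.6), and ARRDC3 (1.94 to 2.29) lay above ARRDC4 (1.25 to 1.45), so both pairs stood in the opposite order. ARRDC2 and MLX overlapped there.

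MLXIPL, the ChREBP gene that is best known from liver and fat, was at the edge of detection. It had 1, 0 and 1 counts in sgCtrl #1, #2 and #3 and 0, 0 and 1 counts in sgCOX4I1 #1, #2 and #3. A count of 0 allows at most 0.163 CPM in sgCtrl #2, and 0.134 and 0.174 CPM in sgCOX4I1 #1 and #2, from counting error only. MLXIPL did not pass the filter on low counts, which the other 7 members passed, and no difference was detectable at this depth.

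**Figure D1:**
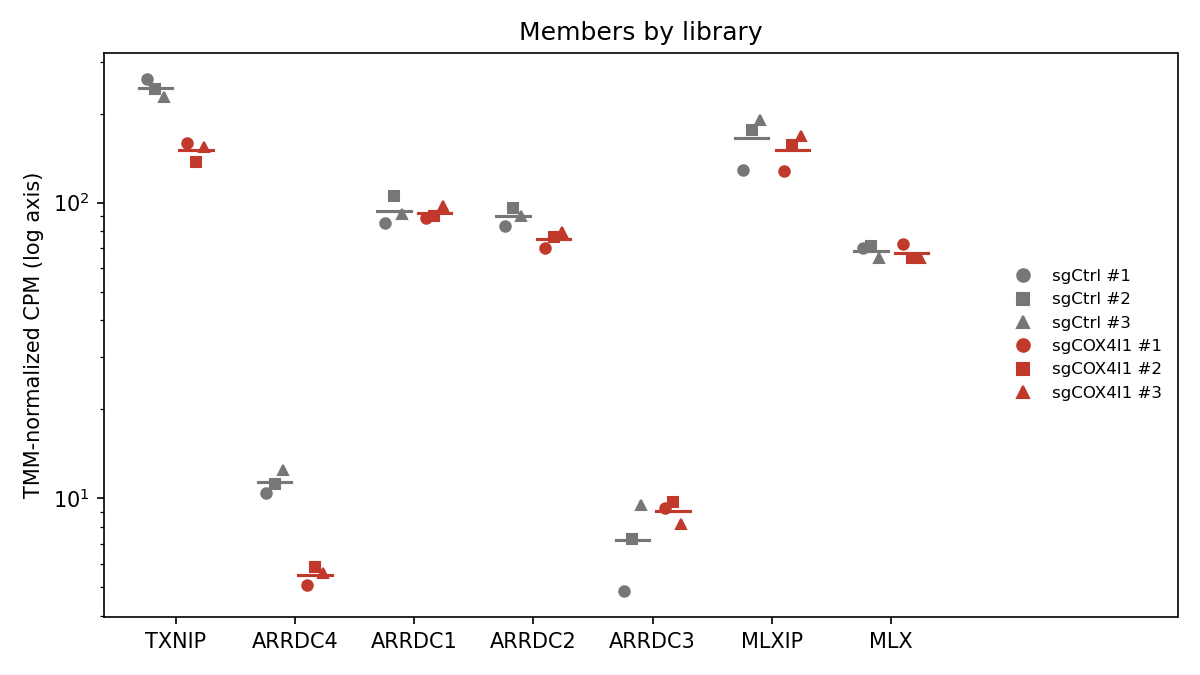
TMM-normalized CPM (log axis) of the 7 members that passed the count filter, with a symbol for each library, grey for sgCtrl and red for sgCOX4I1, and a line at each group mean. The TXNIP and ARRDC4 libraries of the groups stand apart, the ARRDC2 groups are close but separate, and the groups of the other 4 members overlap.

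TXNIP mRNA was lower with each of the COX4I1 guides. The gene, ENSG00000265972, lies on the minus strand of chromosome 1 from 145992435 to 145996579 in GRCh38. It had 263, 243 and 227 CPM in sgCtrl #1, #2 and #3, against 159, 137 and 155 CPM in sgCOX4I1 #1, #2 and #3. The highest sgCOX4I1 library thus lay below the lowest sgCtrl library. Mean levels were 244 ± 17.7 and 150.1 ± 11.6 CPM (SD over 3 libraries). The log2 fold change was -0.70 with a standard error of 0.082, or 1.63-fold lower in sgCOX4I1 cells. The difference of TXNIP was below the 2-fold change that the study set as its threshold.

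ARRDC4 was lower by a larger factor, at a much lower level. ARRDC4 (ENSG00000140450) spans 97960703 to 97973833 of chromosome 15, plus strand. Its level was 10.5, 11.2 and 12.5 CPM in sgCtrl #1, #2 and #3, against 5.08, 5.87 and 5.60 CPM in sgCOX4I1 #1, #2 and #3, and again the groups stood apart. These values rest on 192, 206 and 254 counts in the sgCtrl libraries and on 114, 101 and 175 counts in the sgCOX4I1 libraries. On the log2 scale ARRDC4 differed by -1.05 with a standard error of 0.15, or 2.07-fold lower.

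Both genes were lower under every guide, with different orders among the guides. Relative to the sgCtrl mean, TXNIP was at 65.0%, 56.0% and 63.3% in sgCOX4I1 #1, #2 and #3, and ARRDC4 at 44.6%, 51.6% and 49.2%. COX4I1 mRNA was at 26.7%, 76.7% and 27.0% in the same libraries. The library with the most COX4I1 mRNA left therefore had the lowest TXNIP and the highest ARRDC4 of the 3. With sgCOX4I1 #2 left out the log2 fold change was -0.64 for TXNIP and -1.09 for ARRDC4. The mRNA level of COX4I1 does not measure its protein.

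**Figure D2:**
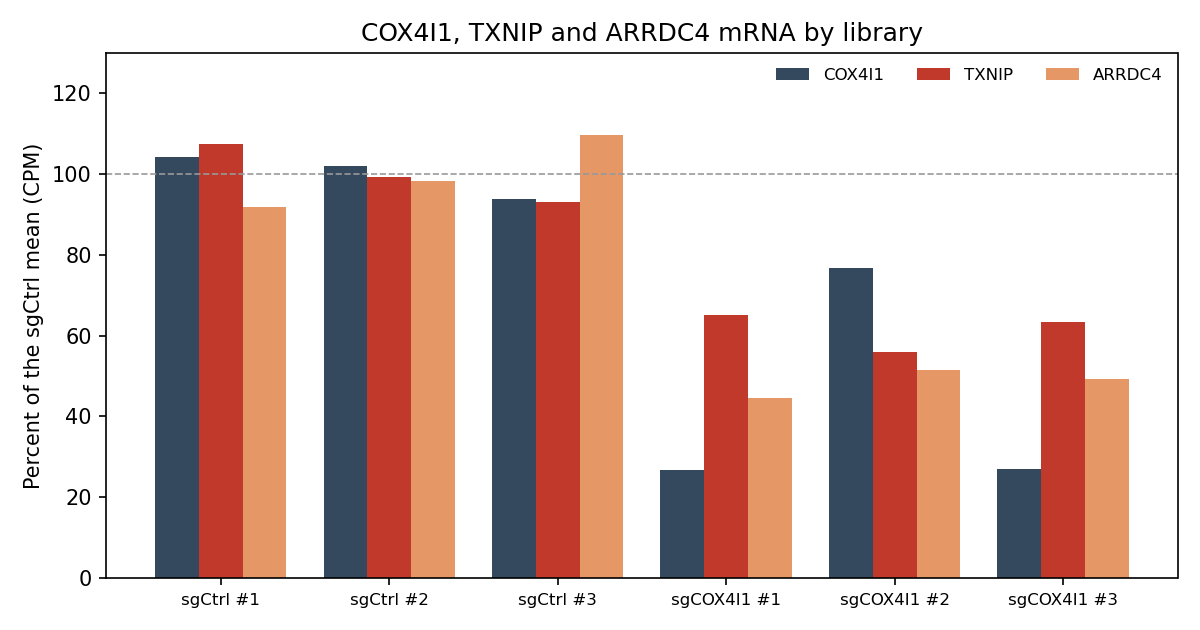
Bars show COX4I1, TXNIP and ARRDC4 mRNA in each library as a percentage of the sgCtrl mean in CPM, with a dashed line at 100. In sgCOX4I1 #2 COX4I1 stood at 76.7%, while TXNIP (56.0%) was at its lowest and ARRDC4 (51.6%) at its highest of the 3 sgCOX4I1 libraries.

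The ratio of TXNIP to ARRDC4 counts shows how closely the genes moved within a library. There were 25.1, 21.7 and 18.2 TXNIP counts for each ARRDC4 count in sgCtrl #1, #2 and #3, and 31.3, 23.3 and 27.6 in sgCOX4I1 #1, #2 and #3. The ranges of the groups overlapped. Among the sgCtrl libraries TXNIP was highest in #1 and lowest in #3, whereas ARRDC4 was lowest in #1 and highest in #3. The spread between control libraries thus ran in opposite directions for the genes. Per kb of transcript, TXNIP made up 43.1% to 49.6% of the summed level of the 5 alpha-arrestins in sgCtrl and 33.8% to 38.1% in sgCOX4I1 libraries. That sum was 179 to 194 CPM per kb in sgCtrl and 139 to 151 CPM per kb in sgCOX4I1 libraries.

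Among the members that were not chosen by their values, 5 were tested and 0 were called at an adjusted p under 0.05 in the edgeR quasi-likelihood fit, adjusted over all 11861 genes by the Benjamini-Hochberg method. Over all genes tested 2.08% were called, 1.06% higher and 1.02% lower in sgCOX4I1 libraries. This background of 247 genes became 561 without sgCtrl #1, 24 without sgCtrl #2, 51 without sgCOX4I1 #2 and 89 without sgCOX4I1 #3. DESeq2 and limma-voom also called 0 of the 5. The median log2 fold change of the 5 was -0.028, beside -0.0023 over all genes.

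ARRDC2 came closest to a call. The gene lies on chromosome 19 from 18001132 to 18014102, on the plus strand. It had 83.3, 95.8 and 90.5 CPM in sgCtrl #1, #2 and #3, against 70.4, 76.7 and 79.3 CPM in sgCOX4I1 #1, #2 and #3. It was the only 1 of the 5 whose groups did not overlap, a separation that 21.6% of all tested genes showed. The difference in log2 was -0.25 with a standard error of 0.081, and edgeR gave an adjusted p of 0.128. Without sgCtrl #1 the adjusted p was 0.0481 at a log2 fold change of -0.30, and across the alternatives it ranged from 0.0108 to 0.419.

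ARRDC3, an alpha-arrestin known for its role in the trafficking of beta-adrenergic receptors, was the one member with a higher mean in sgCOX4I1 libraries. It had 4.85, 7.28 and 9.48 CPM in sgCtrl #1, #2 and #3, against 9.27, 9.71 and 8.22 CPM in sgCOX4I1 #1, #2 and #3. The sgCtrl range included sgCOX4I1 #1 and #3, so the groups overlapped. The log2 fold change of 0.32 (95% interval -0.11 to 0.75, adjusted p = 0.446 from edgeR) did not pass the test. Over the 12 alternatives it ran from 0.10, without sgCtrl #1, to 0.57, without sgCtrl #3. ARRDC1, known for the budding of vesicles at the plasma membrane, was at 94.0 ± 10.1 and 92.2 ± 4.75 CPM (SD, n = 3 libraries each), with a 95% interval of the log2 fold change from -0.21 to 0.16.

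The mRNAs of the factors themselves did not pass the test either. MLX had 70.5, 71.2 and 64.8 CPM in sgCtrl #1, #2 and #3, against 72.4, 65.0 and 65.0 CPM in sgCOX4I1 #1, #2 and #3. Its log2 fold change was -0.028, with a 95% interval from -0.20 to 0.14. The groups overlapped. MLXIP, the gene of MondoA, had 129, 176 and 191 CPM in sgCtrl #1, #2 and #3, against 128, 157 and 168 CPM in sgCOX4I1 #1, #2 and #3. MLXIP rose from #1 to #3 in both groups. The difference (log2 fold change -0.13, 95% interval -0.41 to 0.15, adjusted p = 0.653 from edgeR) was smaller than the spread between the libraries of a group. Of the exonic bases of MLX 18.2% are shared with PSMC3IP on the opposite strand, and the strand setting of the counting is not given in the sources used here. For ARRDC2, ARRDC1 and ARRDC3 at most 9.53% of the exonic bases are shared with any other annotated gene, and for TXNIP, ARRDC4 and MLXIP none are.

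**Figure D3:**
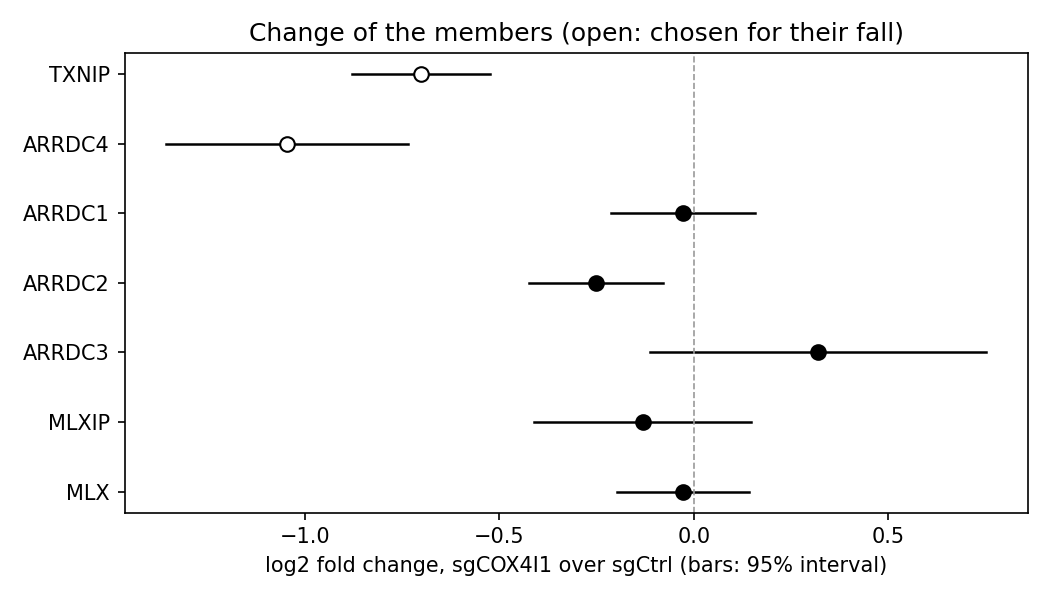
Log2 fold change of sgCOX4I1 over sgCtrl for the 7 tested members, with 95% intervals from edgeR as bars and open circles for the genes that were chosen for their fall. The intervals of ARRDC1, ARRDC3, MLXIP and MLX include 0, and that of ARRDC2 (-0.42 to -0.078) lies below 0 although its adjusted p was 0.128.

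Other genes that MondoA or ChREBP are known to regulate were described with a list of 17. It was written from general knowledge with earlier results of these data known, and 11 of the 17 were tested. Of these, 2 were lower and 0 higher at an adjusted p under 0.05 from the edgeR test. Over all genes tested 1.02% were called lower and 1.06% higher. The median log2 fold change of the list was -0.16, and 10 of the 11 lay below 0, beside 5996 of all 11861 genes tested. Of the 10, ACLY (-0.0025) turned above 0 without TMM scaling (0.011). SCD, the desaturase that makes monounsaturated fatty acids, had mean levels of 768 ± 107 CPM in sgCtrl and 499 ± 73.5 CPM in sgCOX4I1 cultures. SCD thus fell by 0.62 on the log2 scale, with a standard error of 0.12 and an edgeR adjusted p of 0.0163. RGS16, a regulator of G protein signaling, had 44.2, 44.3 and 49.9 CPM in sgCtrl #1, #2 and #3, against 37.1, 35.3 and 32.3 CPM in sgCOX4I1 #1, #2 and #3, a log2 difference of -0.40 with a standard error of 0.090 and an edgeR adjusted p of 0.0353. The RGS16 call was lost without sgCtrl #2 (adjusted p = 0.164), sgCtrl #3 (0.0819), sgCOX4I1 #2 (0.126) or sgCOX4I1 #3 (0.145), and the SCD call without sgCtrl #2 (0.0756), sgCOX4I1 #2 (0.107) or sgCOX4I1 #3 (0.0522). FASN, the fatty acid synthase, was at 572 ± 13.7 and 500.1 ± 13.2 CPM without passing the test (adjusted p = 0.186 from edgeR). LDHA, ACLY and MID1IP1 had log2 fold changes of -0.032, -0.0025 and -0.12. The liver genes PKLR, THRSP, FGF21 and G6PC1 were among the 6 that did not pass the count filter. SCD and FASN are also targets of the SREBP factors.

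Genes of glucose uptake and of the hexose phosphates, whose level the sensor reads, were described with a list of 20, of which 15 were tested. SLC2A3, the high-affinity glucose transporter GLUT3, was the 1 gene called, beside 2.08% of all genes tested. It had 106, 119 and 136 CPM in sgCtrl #1, #2 and #3, against 67.4, 62.9 and 61.4 CPM in sgCOX4I1 #1, #2 and #3, and the groups stood apart. SLC2A3 fell by 0.92 on the log2 scale (edgeR adjusted p = 2.49e-04) and was called with any library left out. SLC2A1, which encodes the GLUT1 transporter that TXNIP is known to regulate, was at 22.1 ± 0.247 and 17.6 ± 1.99 CPM (SD, n = 3 libraries each; adjusted p = 0.139 from edgeR). SLC2A1 was picked out after its values were seen. The hexokinase gene HK2 had a log2 fold change of -0.21, with overlapping groups. The list as a whole had a median of 0.099, with 11 genes above 0 and 4 below, beside 5865 above and 5996 below over all genes. GPI, which converts glucose 6-phosphate to fructose 6-phosphate, and PGM2, a sugar phosphate mutase, had log2 fold changes of 0.082 and 0.099.

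The thioredoxin system, to which TXNIP binds, moved the other way in 1 of its 6 tested genes. Over all genes tested 1.06% were called higher. TXNRD1, the cytosolic thioredoxin reductase, rose by 0.54 on the log2 scale (edgeR adjusted p = 0.00461, standard error 0.082), with mean levels of 132 ± 4.64 CPM in sgCtrl and 193 ± 19.3 CPM in sgCOX4I1 cultures, and without sgCtrl #2 the adjusted p was 0.0889. TXN, the thioredoxin that TXNIP inhibits, was at 182 ± 23.0 and 213 ± 30.3 CPM with overlapping groups (adjusted p = 0.294 from edgeR). TXN2, its mitochondrial counterpart, was at 102 ± 6.72 and 110.3 ± 2.16 CPM. TXNL1 and TXNDC17, relatives of thioredoxin, had log2 fold changes of 0.054 and -0.19.

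In the other lists edgeR called 0 genes, beside 2.08% of all genes tested, so few or no calls are also what that share gives in lists this short. DESeq2 and limma-voom called 0 as well. These lists were the MYC, MAX and MLX network (9 tested), the ubiquitin ligases of the NEDD4 family (7 tested) and the other arrestins (2 tested). The last was AMP kinase, which phosphorylates TXNIP, with its activators (9 tested). In that order the smallest adjusted p values from edgeR were 0.139, 0.156, 0.137 and 0.159. MYC, the oncogenic factor of the network, was at 484 ± 56.8 and 584 ± 20.6 CPM (SD, n = 3 libraries each; adjusted p = 0.139 from edgeR), with groups that did not overlap. MXI1, MXD4 and MGA, which share the partner MAX or MLX, lay between -0.099 and 0.084 on the log2 scale. The ligases ITCH and WWP2 had log2 fold changes of 0.18 and -0.069, SMURF1 and SMURF2 of -0.19 and -0.027. The kinase subunit PRKAA1 was at 0.22 (adjusted p = 0.159), its activator STK11 at -0.14, and CAMKK2 at -0.12. ARRB2, a beta-arrestin, was at 185 ± 12.9 and 157 ± 9.46 CPM (adjusted p = 0.137 from edgeR), and ARRB1 had a log2 fold change of -0.14.

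**Figure D4:**
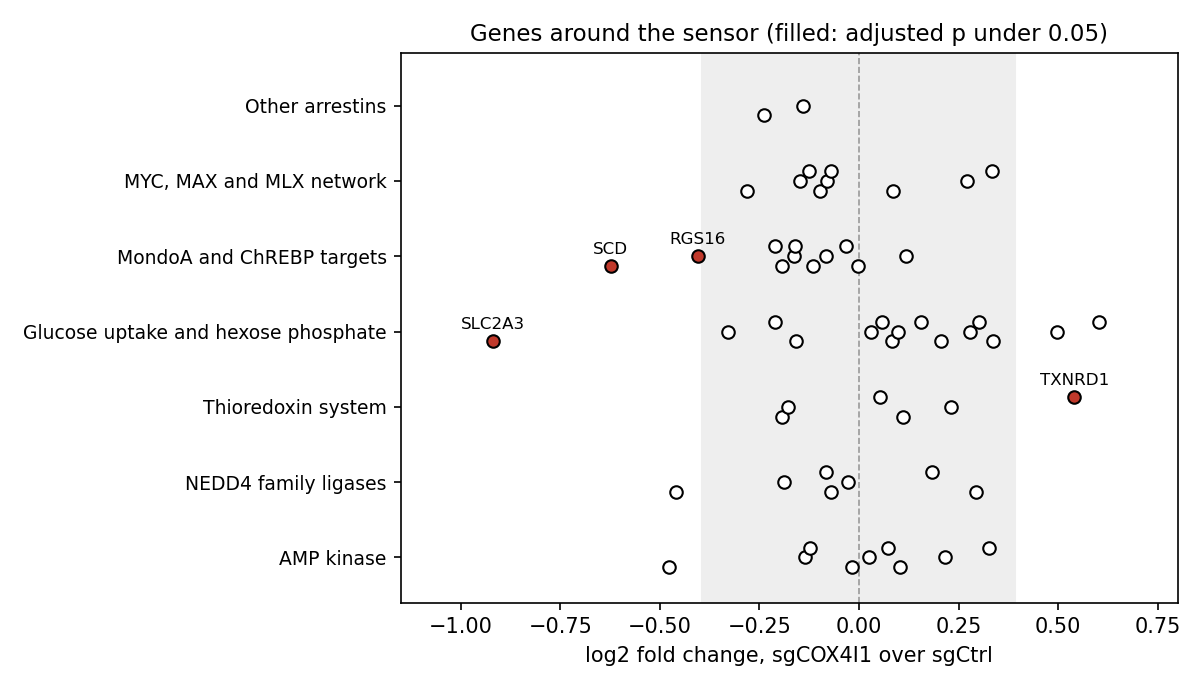
Each circle is the log2 fold change (sgCOX4I1 over sgCtrl) of 1 tested gene of a list, filled where the adjusted p was under 0.05, and the grey band spans the 5th to the 95th percentile of all tested genes (-0.39 to 0.39). SCD, RGS16 and SLC2A3 lie to the left, TXNRD1 to the right, and the other circles were not called.

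The genes with the profile most like TXNIP were found by the root mean square difference of centred log2 CPM over the 6 libraries, among 11324 other genes that averaged 1 CPM or more. They were C6orf223, SLC35F3, SREBF1, LEAP2 and PEX6, with differences from 0.0777 to 0.0999. SREBF1, the gene of the SREBP-1 factor of lipid synthesis, had 275, 288 and 261 CPM in sgCtrl #1, #2 and #3, against 198, 157 and 195 CPM in sgCOX4I1 #1, #2 and #3. Like TXNIP it was lowest in sgCOX4I1 #2. PEX6, a peroxisome assembly factor, ranged from 48.0 to 54.9 CPM in sgCtrl and from 29.9 to 40.8 CPM in sgCOX4I1 libraries. The genes nearest to ARRDC4 were SLC2A3, MPO, SPTB, NFE2 and ACY3, at differences from 0.119 to 0.137. NFE2, a transcription factor of megakaryocytes and erythroid cells, was at 100.5 ± 3.49 and 55.5 ± 1.44 CPM (SD, n = 3 libraries each). TXNIP ranked 34th for ARRDC4 and ARRDC4 ranked 448th for TXNIP, at a difference of 0.245. Since this choice follows the difference between the groups, the levels of these genes are a description.

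**Figure D5:**
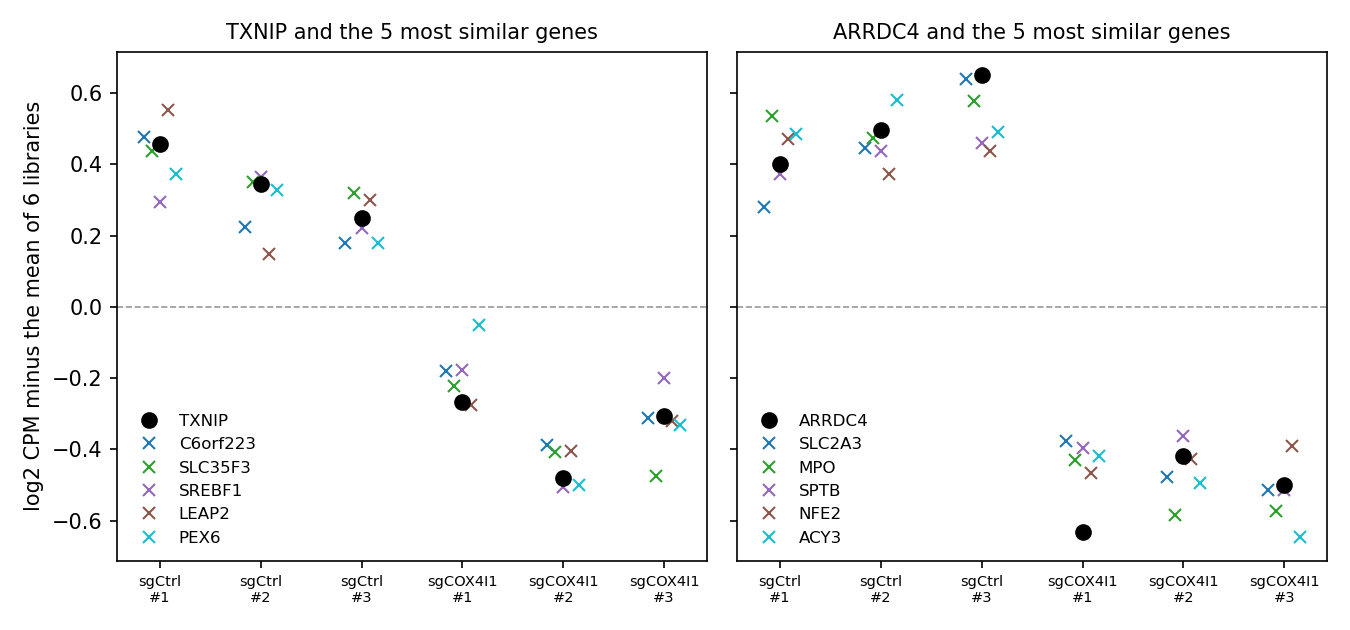
Log2 CPM minus the mean of the 6 libraries for TXNIP (left) and ARRDC4 (right), as black circles, and for the 5 most similar genes of each, as crosses. The sgCtrl values lie above 0 and the sgCOX4I1 values below 0 for each gene shown, with TXNIP lowest in sgCOX4I1 #2 and ARRDC4 lowest in sgCOX4I1 #1.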

How the data were processed

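RNA was measured in 6 Molm13 libraries, and the authors deposited a table of raw counts per gene symbol. The submitters' notes name bcl2fastq 2.20.0.422, STAR 2.6.0a, edgeR and GRCh38, and the names of the deposited table and its columns point to HTSeq counts on STAR alignments with marked duplicates. The methods of the study name Bowtie2 and RSEM instead, and the strand setting of the counting is not given in the sources used here.

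Genes were filtered with filterByExpr and tested with the quasi-likelihood test of edgeR 4.0.16 (R 4.3.3, TMM factors, no covariate), with Benjamini-Hochberg adjustment over 11861 of 19845 genes and a threshold of 0.05. Log2 fold changes are sgCOX4I1 over sgCtrl. An exact permutation test of 3 against 3 libraries cannot go below a two-sided p of 0.1 and was not used. The alternatives were DESeq2 1.42.0, limma-voom (limma 3.58.1), other filters and scaling, a replicate block, and leaving out each library. The test was checked on simulated data. Replicate pairs differed by more than sampling noise, so each library counted as 1 sample. Nothing in the sources names separate thaws or days. The p-values compare the group difference with the spread between these libraries, which the fit estimates partly from all genes.

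The members and lists were chosen with earlier results of these data known, and the promoter motifs after their values were seen. Genes named are the 8 members, COX4I1, the called genes and up to 4 further genes of highest mean CPM in each list, and the 5 genes nearest in profile to TXNIP and to ARRDC4. Some list genes under this rule are not reported here. Promoters of all 8 members were matched by symbol in the RefSeq table.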

Additional observations from a re-analysis of the deposited data

How the results depend on the processing

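TXNIP (-0.75 to -0.64) and ARRDC4 (-1.11 to -0.97) stayed below 0 on the log2 scale in all 12 alternatives. The 247 called genes became 437 with DESeq2, 537 with no count filter and 24 to 561 when 1 library was left out, and the 24 with a fold change of at least 2 became 41 with no count filter and 9 to 50 when 1 library was left out. Leaving out 1 library gave 0 to 1 calls among the members, the other arrestins, the MYC network, the thioredoxin system and AMP kinase, 0 to 2 among MondoA and ChREBP targets and 1 to 2 in the glucose list. The log2 fold change of ACLY turned to 0.011 without TMM and 0.0017 with no count filter. With 1 library left out, signs turned for ARRDC1 (-0.094 to 0.059; 6.2e-05 without sgCOX4I1 #1), ACLY (-0.051 to 0.030), MXD4 (-0.16 to 0.0082), LDHA (-0.083 to 0.015), HK2 (-0.43 to 0.012) and TXNL1 (-0.0047 to 0.12). The cause of these changes was not tested.

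The labels do not say whether the replicate numbers pair the libraries, and the main fit used no pairing. The deviations of same-numbered libraries correlated at 0.38, -0.015 and 0.29 for #1, #2 and #3. Among the sgCOX4I1 libraries, sgCtrl #1 correlated best with #1, and both sgCtrl #2 and sgCtrl #3 with #3. A shared effect of the replicate number was not tested. With the replicate block 1408 of the 11861 genes tested were called, among them all 247, and 57 with a fold change of at least 2. Beside that share, the replicate block called 1 of 5 members (ARRDC2), 1 of 2 other arrestins and 2 of 9 in the MYC network. It called 3 of 11 MondoA and ChREBP targets (SCD, RGS16 and FASN) and 4 of 15 in the glucose list. In the thioredoxin system it called 2 of 6, in AMP kinase 2 of 9 and among the NEDD4 family ligases 0 of 7. At this depth a level of 0 counts allows up to 0.0959 to 0.174 CPM, which limits MLXIPL.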

Other observations

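The pair of CACGNG hexamers 5 bases apart that stands before TXNIP was found before 23 genes in all, of which 20 were counted and 14 tested. Of the 13 other than TXNIP, edgeR called 0 and DESeq2 and limma-voom called 1 and 0. Over all genes edgeR called 2.08%, or 247 genes, DESeq2 437 genes and limma-voom 252 genes, so 13 genes are too few to differ from that share by having no call. The log2 fold changes of the 13 ran from -0.28 (RCN3) to 0.54 (HES1, adjusted p = 0.0605 from edgeR and 0.0291 from DESeq2), with 5 below 0, 8 above 0 and a median of 0.080. PKLR, the liver pyruvate kinase and a known ChREBP target, also has such a pair but was not tested, with at most 4 counts in a library. HES1, RCN3 and the motif itself were picked out after the values were seen.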
